A study of Mus musculus with 12 samples.

Results

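The endoderm, the germ layer that forms the gut tube and its organs, was followed through 9 genes taken by symbol from a table of FPKM for 23421 gene symbols: the transcription factor genes Sox17, Foxa1, Foxa3 and Hnf4a, and Trh, Nepn, Ttr, Apoa1 and Afp, which encode secreted products. All 9 were found. FPKM are fragment numbers scaled by gene length and by mapped fragments, so levels of different genes can be set side by side. RNA came from mouse cells of a mixed 129S2/C57Bl6J background that were positive for T (Brachyury) in a cell sorter; T is a T-box transcription factor made in the primitive streak and new mesoderm. From embryos there was 1 library labelled wild type, which covers Theiler stages TS12 and TS13 together, and 2 libraries of the mutant T_Y88A, which carries an amino acid substitution in T, at TS12 and at TS13. From Day 4 cultures of embryonic stem cells, given BMP4 and then WNT3A with FGF8, there was 1 library titled wild type and 1 titled T_Y88A. No label says that libraries came from separate animals, litters or cultures, how many embryos were pooled, or how many cell lines were used, so p-values measure only the spread between these libraries. The wild-type embryo column is named with the same prefix as the T_Y88A embryo columns, and the series description applies the words wild type to T heterozygotes, so each direction rests on the sample label.

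SOX17 acts at the start of endoderm formation. The forkhead factors FOXA1, FOXA2 and FOXA3 open chromatin at endoderm and liver genes, and HNF4A drives the liver and yolk sac programme downstream of them. Ttr, Apoa1 and Afp are classical products of visceral endoderm, the layer that lines the yolk sac, and later of liver, while Trh and Nepn are used as markers of the early gut endoderm in mouse. T marks streak and mesoderm, and both mesoderm and definitive endoderm arise from the streak.

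The absolute depth is unknown, since FPKM keep no read totals, and no counting interval can be given. From the steps between the lowest values, depth relative to the wild-type embryo library was 0.754 in T_Y88A TS12, 0.971 in T_Y88A TS13, 1.04 in Day 4 wild type and 0.493 in Day 4 T_Y88A. T stood between 26.99 and 72.9 FPKM in the 5 libraries. The presomitic genes Tbx6, Msgn1 and Dll1 stood at 12.6, 41.1 and 44.3 FPKM in the wild-type embryo library. In the Day 4 libraries they stood at no more than 1.39, 0.409 and 1.12. The T_Y88A embryo libraries lay between, at 1.60 to 4.79, 2.71 to 3.48 and 7.79 to 10.8 FPKM. The streak gene Fgf8 went the other way, at 3.78 to 13.1 FPKM in the embryos and at 26.5 and 54.3 at Day 4.

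Foxa1, Hnf4a, Apoa1 and Afp, 4 of the 9, stayed under 1 FPKM in all 5 libraries, as did 43.4% of 22631 genes. The libraries held 2 or 3 genes of the 9 at 1 FPKM or more. Summed over the 9, the level was 12.1 FPKM in the wild-type embryo library, 6.36 in T_Y88A TS12, 3.39 in T_Y88A TS13, 104 in Day 4 wild type and 184 in Day 4 T_Y88A. Trh alone made up 97.1% and 97.9% of the sum in the Day 4 libraries. Without Trh the sums lay between 3.07 and 8.18 FPKM. In bulk samples, fewer cells of a type and less RNA per cell cannot be told apart.

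**Figure D1:**
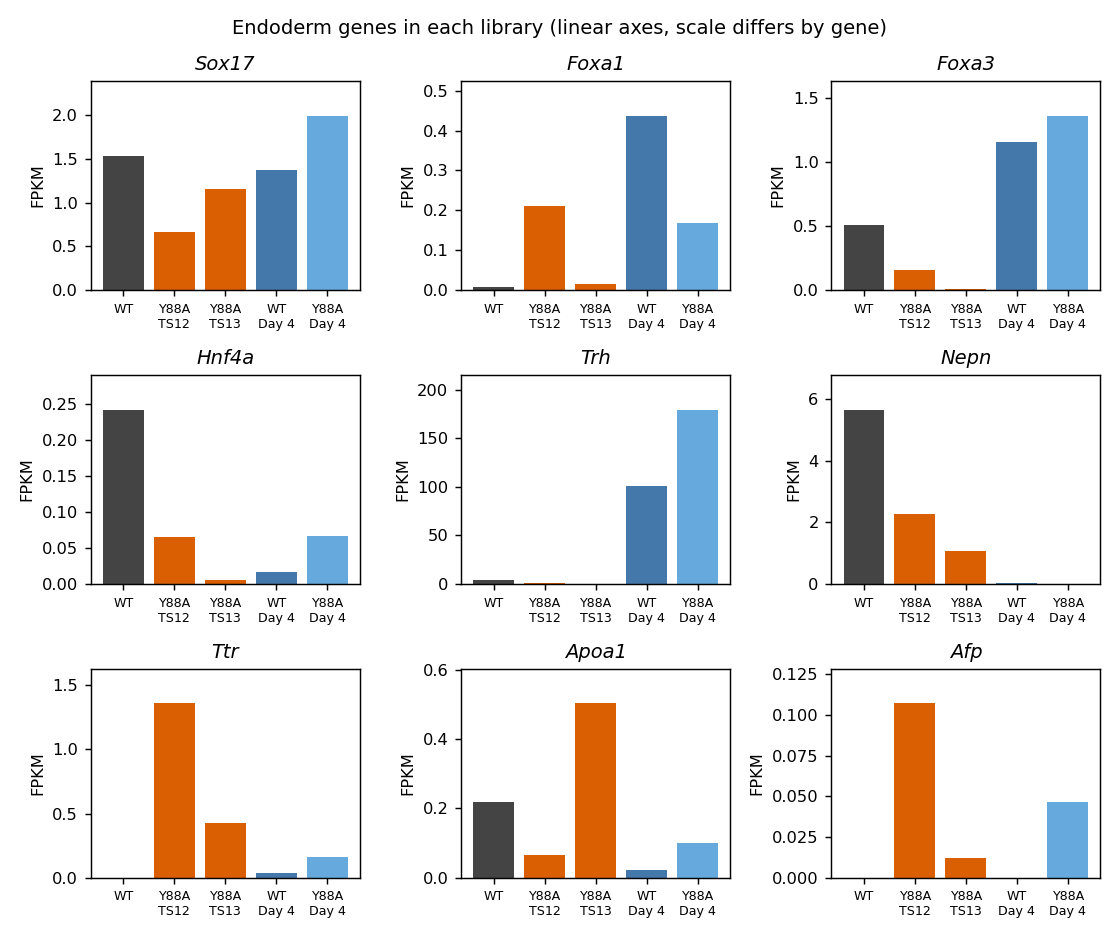
FPKM (linear vertical axes from 0, a separate scale for each gene) of the 9 endoderm genes in the 5 libraries, 1 bar per library and no error bars, with grey for the wild-type embryo library, orange for T_Y88A embryos and dark and light blue for Day 4 wild type and T_Y88A. Trh reaches 101 and 180 FPKM at Day 4, Nepn stands at 1.09 to 5.67 FPKM in embryos and at 0.0255 or 0 at Day 4, and Hnf4a, Apoa1 and Afp stay under 1 FPKM throughout.

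Among the transcription factors, Sox17 (chromosome 1, 4490928 to 4497426, mm10) was low and even across the libraries. It stood at 1.54 FPKM in the wild-type embryo library, 0.662 in T_Y88A TS12, 1.15 in T_Y88A TS13, 1.37 in Day 4 wild type and 1.99 in Day 4 T_Y88A. The wild-type value lay above both T_Y88A values in the embryos and below the T_Y88A value at Day 4. Sox17 is also a gene of endothelium, and its level ranked near the middle of the 22631 genes in each library, above 48.2% to 54.8% of them.

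Foxa3 (chromosome 7, 19013283 to 19023539) stood at 0.507 FPKM in the wild-type embryo library, 0.156 in T_Y88A TS12, 0.0121 in T_Y88A TS13, 1.16 in Day 4 wild type and 1.36 in Day 4 T_Y88A. Both Day 4 libraries lay above the 3 embryo libraries. Foxa1 (chromosome 12, 57540628 to 57548029) stood at 0.00754, 0.210 and 0.0155 FPKM in the same order of embryo libraries and at 0.437 and 0.168 at Day 4, so the embryo and Day 4 ranges overlapped. The most abundant forkhead gene of this group was Foxa2, which is not among the 9: it stood at 1.85, 0.704 and 0.128 FPKM in the embryos and at 28.7 and 19.6 at Day 4. The Foxa2 level was 24.7 times that of Foxa3 in Day 4 wild type and 3.66 times in the wild-type embryo library.

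Hnf4a (chromosome 2, 163506811 to 163572907) had its highest value, 0.243 FPKM, in the wild-type embryo library. It stood at 0.0658 in T_Y88A TS12, 0.00568 in T_Y88A TS13, 0.0160 in Day 4 wild type and 0.0671 in Day 4 T_Y88A. At its highest it ranked above 41.4% of genes.

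Of the secreted products, Trh (chromosome 6, 92242061 to 92244650), which encodes the precursor of thyrotropin-releasing hormone, had the widest range. Its level was 3.96 FPKM in the wild-type embryo library, 1.45 in T_Y88A TS12, 0.179 in T_Y88A TS13, 101 in Day 4 wild type and 180 in Day 4 T_Y88A. Every Day 4 value lay above every embryo value, and the mean level was 75.4 times as high at Day 4 as in the embryos. Trh ranked 722nd of 22631 genes in Day 4 wild type and 348th in Day 4 T_Y88A, against 8382nd, 10395th and 13816th in the embryo libraries.

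Nepn (chromosome 10, 52388864 to 52404611) encodes nephrocan, a secreted leucine-rich repeat protein. It stood at 5.67 FPKM in the wild-type embryo library, 2.29 in T_Y88A TS12, 1.09 in T_Y88A TS13 and 0.0255 in Day 4 wild type, and it was listed at 0 in Day 4 T_Y88A. It was the most abundant of the 9 genes in the wild-type embryo library and in T_Y88A TS12. Nepn and Trh held the top 2 places among the 9 in the wild-type embryo library, and at Day 4 Trh held the top place while Nepn was at or near 0.

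The plasma carrier and lipoprotein genes were near the floor. Ttr, the carrier of thyroxine and of retinol-binding protein, was listed at 0 in the wild-type embryo library and stood at 1.36 in T_Y88A TS12, 0.426 in T_Y88A TS13, 0.0380 in Day 4 wild type and 0.160 in Day 4 T_Y88A. T_Y88A TS12 was the only library with Ttr above 1 FPKM. Apoa1 (chromosome 9, 46228630 to 46230469), the main protein of high-density lipoprotein, stood at 0.220, 0.0647 and 0.503 FPKM in the 3 embryo libraries, with the wild-type value between the T_Y88A values, and at 0.0236 and 0.0990 at Day 4. Afp (chromosome 5, 90490714 to 90508907), the fetal counterpart of albumin, was listed at 0 in both libraries titled or labelled wild type and stood at 0.107, 0.0119 and 0.0468 FPKM in T_Y88A TS12, T_Y88A TS13 and Day 4 T_Y88A. An exact 0 in such a table can be a failed estimate, so no linear fold was computed against it; differences in log2(FPKM + 1) that involve a 0, such as those of Ttr and Afp, carry the same doubt.

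Promoters are shown for the 2 genes with the highest levels, which had opposite patterns between the systems, and for 2 products that stayed near 0. Each is the 250 bases before the annotated start, 5′ to 3′ along the gene, from RefSeq on GRCm38.p6 (mm10); 7 of the 9 genes had an entry. The Nepn window lies inside the annotated gene, before a start downstream of the outermost one. Capitals mark matches, on either strand, to any of 5 motifs. The forkhead core was searched as TGTTTNC. The letters AGATAA stood for the core of GATA factors, and TCACACCT for the T-box core. The TATA box was taken as the letters TATAAA, and the core of SOX17 as ACAATNG. None of these motif matches overlapped another in the sequences shown.
Trh (highest at Day 4, chr6:92244651-92244900, minus strand): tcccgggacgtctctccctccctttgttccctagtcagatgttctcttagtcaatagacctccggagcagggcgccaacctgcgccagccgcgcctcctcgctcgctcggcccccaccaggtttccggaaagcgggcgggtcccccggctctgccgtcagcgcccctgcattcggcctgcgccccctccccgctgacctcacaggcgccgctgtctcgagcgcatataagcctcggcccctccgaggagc
Nepn (highest in embryos, chr10:52391358-52391607, plus strand): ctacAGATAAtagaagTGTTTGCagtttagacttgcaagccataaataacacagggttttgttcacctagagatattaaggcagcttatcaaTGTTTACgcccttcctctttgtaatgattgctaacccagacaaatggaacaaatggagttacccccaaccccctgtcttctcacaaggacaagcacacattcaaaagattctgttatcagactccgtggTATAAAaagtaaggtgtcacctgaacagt
Apoa1 (under 1 FPKM throughout, chr9:46228380-46228629, plus strand): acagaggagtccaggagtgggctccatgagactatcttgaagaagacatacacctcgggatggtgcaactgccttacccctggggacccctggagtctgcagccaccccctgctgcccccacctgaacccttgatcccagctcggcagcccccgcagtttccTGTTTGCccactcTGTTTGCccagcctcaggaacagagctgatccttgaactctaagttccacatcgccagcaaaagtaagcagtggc
Afp (under 1 FPKM throughout, chr5:90490464-90490713, plus strand): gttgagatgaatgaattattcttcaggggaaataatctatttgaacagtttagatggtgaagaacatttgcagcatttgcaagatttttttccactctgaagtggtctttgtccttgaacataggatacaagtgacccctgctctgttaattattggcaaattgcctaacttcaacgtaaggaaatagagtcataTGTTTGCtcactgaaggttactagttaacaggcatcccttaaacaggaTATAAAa
The Trh window held no match to the 5 motifs. Nepn held 2 forkhead cores, a GATA core and the letters TATAAA, Apoa1 held 2 forkhead cores, and Afp held a forkhead core and the letters TATAAA. The TATAAA letters lay 29 to 24 bases before the start in Nepn and 7 to 2 bases before it in Afp. Over all 32851 promoter windows of this length, 17.8% held the forkhead core, 9.99% the GATA core, 12.4% the TATA box, 6.91% the SOX17 core and 1.12% the T-box core. Foxa1 and Hnf4a, whose windows are not shown, each held a forkhead core as well. Whether any of these matches bears on the levels was not tested. The exact letters TCACACCT were found in none of the 8 windows of the 7 genes, which says only that these letters are not in these windows. Shorter or inexact forms of a T-box site, of a TATA box or of the other motifs were not searched.

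The comparison of T_Y88A with wild-type embryos asked whether endoderm genes differ in T-positive cells of the mutant. Nepn fell: its level was 5.67 FPKM in wild type and 1.69 ± 0.851 (SD, n = 2) in T_Y88A. On the log2 scale the difference was -1.35 ± 0.30 (SE), with a 95% interval of -2.01 to -0.69. It was the 1 gene of the 9 to pass limma's test at an adjusted p of 0.05 (adjusted p = 0.0390), where 2.40% of 11145 genes passed and 1.63% passed as lower. Trh stood at 3.96 FPKM against 0.815 ± 0.899 (SD, n = 2), a log2 difference of -1.54 ± 0.38 (SE) that did not pass in limma (adjusted p = 0.0607, 95% interval -2.38 to -0.71). The log2 difference of Sox17 was -0.42 ± 0.31 (SE; limma adjusted p = 0.550, 95% interval -1.09 to 0.24).

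The other 6 of the 9 genes had a mean under 1 FPKM over the embryo libraries and were not tested. Trh and Sox17 passed that filter through the wild-type library, their T_Y88A means being under 1 (0.815 and 0.908 FPKM). In all, 5 of the 9 genes (Sox17, Foxa3, Hnf4a, Trh and Nepn) had the wild-type value above both T_Y88A values, against 34.7% of the 17369 genes above 0 in any embryo library, and 3 (Foxa1, Ttr and Afp) had it below both, against 37.0%. With 9 genes, these shares are read as a description. The lower transcription factors were not joined by Foxa1, and 2 of the 3 liver-type products had their lowest embryo value in the wild-type library. Both of these values, of Ttr and Afp, are an exact 0, with the doubt given above. That library had the largest share of symbols at 0 among the embryo libraries, 33.7% against 27.8% in T_Y88A TS12 and 28.5% in T_Y88A TS13.

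The Nepn call rests on the settings: of 8 alternatives with a test, only robust variance moderation kept it in limma (adjusted p = 0.0466), and the others gave adjusted p from 0.0632 to 0.517. The T_Y88A libraries of both stages lay below the wild-type library for Nepn, at log2 differences of -1.02 and -1.68.

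**Figure D2:**
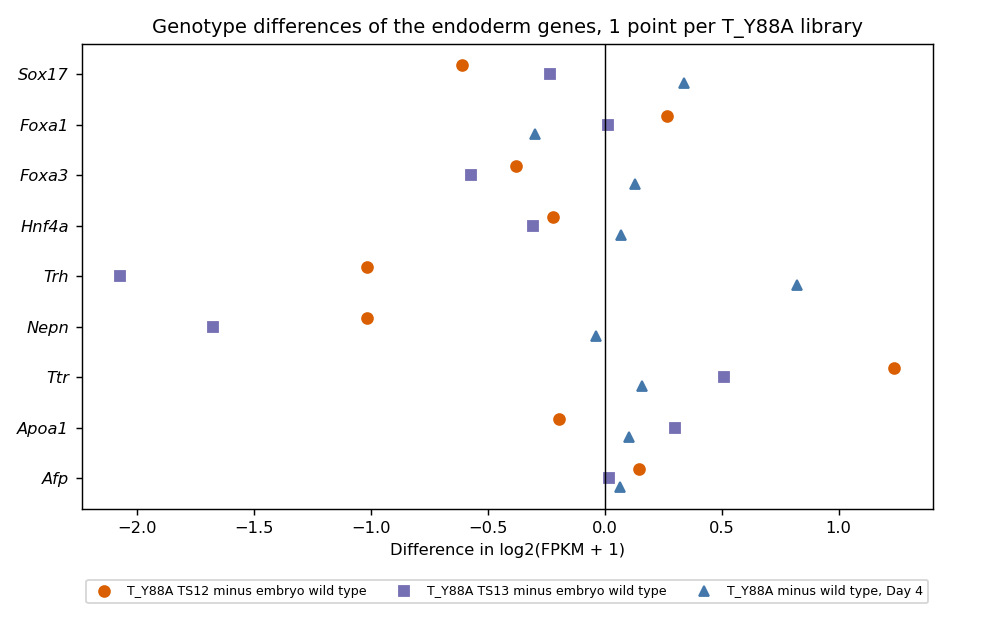
Difference in log2(FPKM + 1) between each T_Y88A library and the wild-type library of its system (horizontal axis) for the 9 endoderm genes, with circles for TS12, squares for TS13 and triangles for Day 4; each point is 1 library and the 2 embryo points share 1 wild-type library. Trh lies at -1.02 and -2.07 in the embryos and at 0.82 at Day 4, and Nepn at -1.02 and -1.68 in the embryos and near 0 at Day 4.

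Markers of other cell types also differed in the embryos, where 1.63% of all genes tested passed as lower. Of 11 endothelial genes tested, 7 fell (Cdh5, Kdr, Pecam1, Tek, Tie1, Egfl7 and Erg) and 4 did not pass, with a list median of -1.08 against -0.0055 over all genes tested. Their summed level was 126 FPKM in the wild-type library and 50.2 and 64.95 in T_Y88A TS12 and TS13. All 9 blood genes tested fell, among them Hba-x, Hbb-bh1, Hbb-y, Gata1, Klf1, Tal1, Alas2 and Lmo2 (median -1.78), with sums of 6361, 1137 and 2222 FPKM. Of 3 notochord and node genes tested Shh, which passed the filter only through the wild-type library, fell. T and Nog did not pass (list median -0.59). Nog went the other way, from 1.71 FPKM in the wild-type library to 3.70 and 3.19 in T_Y88A TS12 and TS13. Noto and Foxj1 went from 2.97 and 0.531 FPKM to being listed at 0 in both T_Y88A libraries. That list, which holds T, Foxa2 and Cer1 as well, summed to 80.4, 74.8 and 31.8 FPKM. Most of each sum was T itself, at 65.9, 69.8 and 26.99 FPKM. Of 11 presomitic and streak genes, Tbx6, Msgn1, Dll1, Rspo3 and Lfng fell, Nkx1-2 rose and 5 did not pass (median -0.98). The part of these cell types in the values of Sox17, Foxa3, Trh and Nepn was not tested.

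At Day 4 there was 1 library per genotype and no test. The level of Trh was 1.77 times as high in T_Y88A as in wild type, a log2 difference of 0.82, and that of Sox17 went from 1.37 to 1.99 FPKM. None of the 3 genes averaging 1 FPKM or more (Sox17, Trh and Foxa3) reached a 2-fold difference, where 1.94% of 11550 genes did. T_Y88A stood above wild type for 7 of the 9 genes, the exceptions being Foxa1 and Nepn, against 50.8% of 19256 genes above 0 in either library, and 5 of those 7 differences (Foxa3, Hnf4a, Ttr, Apoa1 and Afp) were at most 0.16 on the log2 scale. Most notochord and node genes were lower in T_Y88A at Day 4. Noto stood at 5.87 and 1.19 FPKM, Shh at 1.77 and 0.146 and Nog at 12.1 and 0.431, in the order wild type and T_Y88A. Dand5 went the other way, at 2.54 and 3.89 FPKM. The sum of the notochord and node list was 220 FPKM in wild type and 105 in T_Y88A, 5 of its 9 measured genes being at least 2-fold lower. T, at 72.9 FPKM in wild type and 32.5 in T_Y88A, and Cer1, at 52.5 and 17.2, held a large part of both sums. The sum of that list thus went opposite to Trh, and the part of its genes in the Trh value was not tested.

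The genotype differences of the embryos and of Day 4 were compared directly by an interaction term. For Trh the embryo difference was lower than the Day 4 difference by a log2 value of -2.37 ± 0.63 (SE; 95% interval -3.90 to -0.83), and it did not pass in limma (adjusted p = 0.288). For Nepn the value was -1.31 ± 0.48 (SE; limma adjusted p = 0.368) and for Sox17 -0.76 ± 0.38 (SE; limma adjusted p = 0.469). So 0 of the 3 genes tested passed, 2 of them (Trh and Nepn) at an unadjusted p under 0.05, where 0.147% of 11602 genes passed and 12.7% had an unadjusted p under 0.05. Nepn was at or near 0 in both Day 4 libraries. Of 10 notochord and node genes tested, Nog alone passed, with a log2 value of 3.91. It was higher in both T_Y88A embryo libraries and lower in T_Y88A at Day 4.

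The clearest contrast was between the embryo and Day 4 cells, tested over all 5 libraries with genotype as a covariate. Trh was higher at Day 4, with a log2 difference of embryo minus Day 4 of -5.72 ± 0.50 (SE; limma adjusted p = 7.86e-05), the levels being 1.86 ± 1.92 FPKM (SD, n = 3) and 140 ± 55.4 (SD, n = 2). Nepn was higher in the embryos, at 3.01 ± 2.37 FPKM (SD, n = 3) against 0.0127 ± 0.0180 (SD, n = 2), a log2 difference of 1.95 ± 0.34 (SE; limma adjusted p = 0.00205). It passed the filter of 1 FPKM through the embryo libraries, where it is high, and 1 of its Day 4 values is an exact 0. Sox17 had a difference of -0.34 ± 0.26 (SE; 95% interval -0.93 to 0.26) and did not pass (limma adjusted p = 0.302). These 2 calls among 3 tested genes stand beside 51.9% of 11602 genes called, 26.0% higher in the embryos and 25.9% higher at Day 4, so a call alone sets none of the 9 apart.

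Counting groups that do not overlap, 2 of the 9 genes (Trh and Foxa3) had all 3 embryo values below both Day 4 values, against 31.5% of 19763 genes, and Nepn alone had all of them above, against 23.9%. Foxa3, with a mean of 0.640 FPKM over the 5 libraries, was not tested. With the filter lowered to a mean of 0.3 FPKM it was called higher at Day 4 (log2 difference -0.87, limma adjusted p = 0.0110). Its embryo mean was 0.225 FPKM, so it passed that filter only through Day 4, where it is high. At that filter 6707 of 13665 genes were called, and Ttr was tested too and did not pass. Without the wild-type library, Nepn had a mean under 1 FPKM over the 4 libraries left and could not be tested; its call held in the 12 alternatives that tested it.

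**Figure D3:**
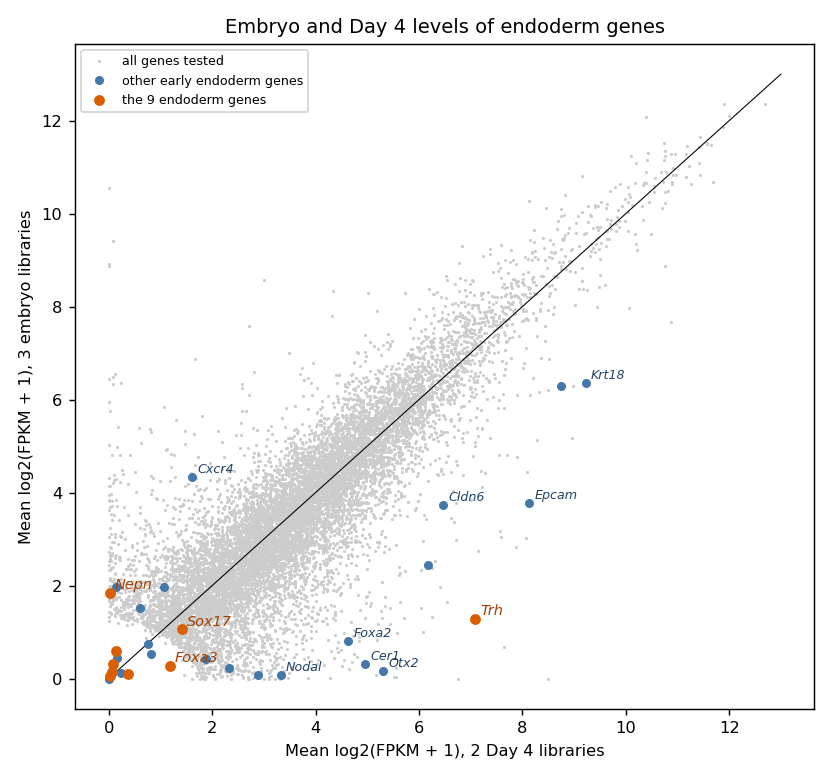
Mean log2(FPKM + 1) of the 2 Day 4 libraries (horizontal axis) and of the 3 embryo libraries (vertical axis) for the 9 endoderm genes in orange, 21 other early endoderm genes in blue and all 11602 genes tested in grey, with the line of equal levels. Trh, Foxa2, Cer1, Otx2, Epcam and Krt18 lie far below the line, and Nepn and Cxcr4 above it.

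Of 21 other early endoderm genes listed, 16 were tested, and 12 were higher at Day 4 and 4 higher in the embryos, against 25.9% and 26.0% of all genes tested. The median log2 difference of embryo minus Day 4 was -2.78, against 0.0086 over all genes tested. Of the 12, 7 (Foxa2, Eomes, Gsc, Lhx1, Otx2, Cer1 and Nodal) had an embryo mean under 1 FPKM and so passed the filter only through Day 4, where they are high, as Hhex and Sox7 passed only through the embryos; the count and the median therefore describe the genes that passed, not the list. The 12 included the transcription factor genes Foxa2, Eomes, Gsc, Lhx1 and Otx2, the signalling genes Nodal and Cer1, and the epithelial genes Cldn6, Krt8, Krt18, Epcam and Cdh1. Otx2, a head and anterior endoderm factor, stood at 0 to 0.362 FPKM in the embryos and at 29.2 and 50.6 at Day 4. Cer1, a secreted antagonist of Nodal, BMP and WNT, stood at 0.0732 to 0.510 in the embryos, 52.5 in Day 4 wild type and 17.2 in Day 4 T_Y88A. Eomes, a T-box factor needed for definitive endoderm, stood at 0.0129 to 0.113 in the embryos and at 4.27 and 9.43 at Day 4. Several of these genes also serve in epiblast, node or other epithelia.

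The 4 genes higher in the embryos were Cxcr4, Sox7, Gata6 and Hhex. Cxcr4, a chemokine receptor used to sort definitive endoderm but also made in mesoderm, stood at 16.9, 23.6 and 17.5 FPKM in the embryos against 1.25 and 3.17 at Day 4. Sox7, a close relative of Sox17 that is also endothelial, stood at 4.61, 1.62 and 3.14 FPKM against 0.0782 and 0.119. Its order in the embryos, highest in the wild-type library and lowest in T_Y88A TS12, was that of Sox17. Gata6 stood at 2.05, 3.43 and 3.42 FPKM against 0.559 and 1.79, and Hhex at 1.83, 1.22 and 2.77 against 0.511 and 0.551.

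In the T_Y88A comparison of embryos none of these early endoderm genes passed: 0 of 9 tested in limma, 3 at an unadjusted p under 0.05, where 16.4% of all genes tested had one (median 0.032). Cldn6 (18.1, 10.5 and 9.80 FPKM; limma adjusted p = 0.0650) and Epcam (20.3, 13.4 and 7.42 FPKM; limma adjusted p = 0.10) were lower in both T_Y88A libraries without passing. Foxa2 and Mixl1, the latter at 2.67, 0.167 and 0.0973 FPKM, had means under 1 FPKM and were not tested. Gata4 stayed under 1 FPKM in the embryos and reached 1.39 in Day 4 T_Y88A. The gut hormone gene Pyy was listed at 0 in all 5 libraries.

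**Figure D4:**
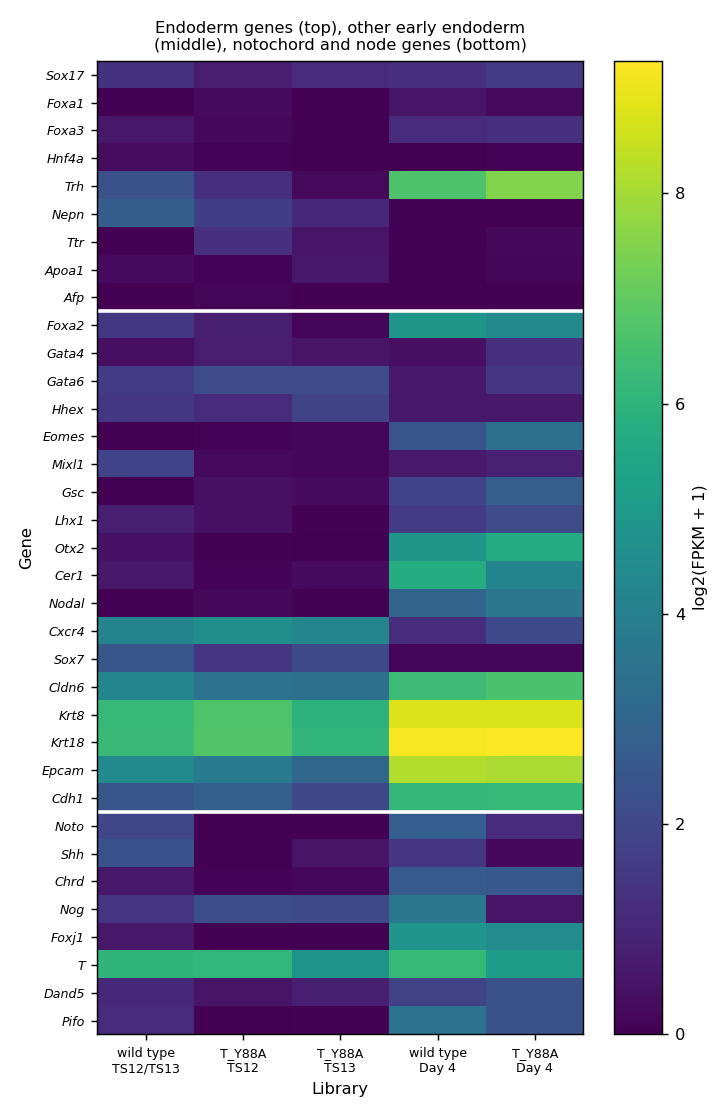
Levels as log2(FPKM + 1), given by colour, in the 5 libraries (columns) for the 9 endoderm genes (top), the other early endoderm genes that reached 1 FPKM in any library (middle) and notochord and node genes (bottom). Bright cells at Day 4 mark Trh, Foxa2, Otx2, Cer1 and the epithelial genes, while the other 8 of the 9 endoderm genes reach at most 1.99 FPKM at Day 4.

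Of 22 other visceral endoderm and liver-type products listed, 13 stayed under 1 FPKM in all embryo libraries and 14 in both Day 4 libraries, against 48.0% and 47.6% of 22631 genes. Alb and Fga were listed at 0 in all 5 libraries. Apoa4, Apob, Apoc2, Apom, Amn and Slc2a2 stood under 1 FPKM throughout. Other listed genes were measured at higher levels: Rbp4 stood at 1.82 to 2.14 FPKM in the embryos, Mttp at 1.59 to 5.14 and Dab2 at 1.59 to 3.98 over the 5 libraries. Apoe stood at 50.6, 31.8 and 26.9 FPKM in the embryos and at 501 and 489 at Day 4, and Lrp2, an endocytic receptor, at 4.27, 4.61 and 9.35 against 35.2 and 33.8. In the embryos Apoe (limma adjusted p = 0.0476) and the X-linked homeobox gene Rhox5 (4.96, 0.239 and 0.371 FPKM; limma adjusted p = 0.00223), which passed the filter only through the wild-type library, fell in T_Y88A and 6 others did not pass (Rbp4, Lrp2, Dab2, Mttp, Ctsz and Amot; list median -0.15). Across systems Apoe, Lrp2, Mttp and Rhox5 were higher at Day 4, and Rbp4, which passed the filter only through the embryos, was higher there. Over all genes tested, 25.9% were called higher at Day 4 and 26.0% higher in the embryos. Trf, the transferrin gene, stood at 1.36 FPKM in the wild-type embryo library and under 0.2 elsewhere, and Apoa2 peaked at 1.07 in Day 4 wild type.

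Ttr showed its highest value, 1.36 FPKM, in T_Y88A TS12. Some other products of the list had their highest embryo value in that library too, and others did not. Apoc2 stood at 0.808 FPKM there and at 0 and 0.0785 in the other embryo libraries, Apom at 0.535 and at 0 in both others, and Amn at 0.246 and at 0 in both others. Among the embryo libraries Apoa1 and Apob were highest in T_Y88A TS13 instead, Apob at 0.130 FPKM. Apoa2, Apoa4, Dab2, Fgb and Mttp were also highest in T_Y88A TS12. Apoe, Trf, Rhox5, Serpina1a, Ctsz and Amot were highest in the wild-type library, and Rbp4, Lrp2, Cubn and Slc2a2 in T_Y88A TS13. The values of Ttr, Apoc2, Apom, Amn, Apoa1 and Apob are single low values without a test.

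Regional genes of the gut tube gave no common direction. In the embryos Sox2, which is mainly neural at this stage, rose and Shh fell among 8 tested (median -0.073), Shh having passed the filter only through the wild-type library, and Prox1, Cdx1, Cdx2, Isl1, Cpm and Spink3 did not pass. Across systems Cdx1, Cdx2 and Isl1, which passed the filter only through the embryos, were higher there and Prox1 and Spink3 at Day 4. The foregut genes Nkx2-1 and Pax9, the pancreatic gene Pdx1 and the signal gene Ihh stayed under 0.5 FPKM in all 5 libraries.

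Genes that make or receive the TRH peptide did not match the level of Trh at Day 4. Pcsk1, a protease that cuts the precursor, stood at 2.77, 3.14 and 1.60 FPKM in the embryos, 9.41 in Day 4 wild type and 1.76 in Day 4 T_Y88A. Pcsk2, which acts with it, stayed at 0.208 or less. Cpe, which trims the cut peptides, was higher in the embryos (8.86 to 11.1 FPKM) than at Day 4 (2.28 and 1.00; limma adjusted p = 9.09e-05). Pam, which amidates the peptide end, stood at 11.3 to 13.5 FPKM in the embryos and at 17.3 and 17.4 at Day 4 (limma adjusted p = 0.0474). The receptor genes Trhr and Trhr2 and the degrading enzyme gene Trhde did not exceed 0.0491 FPKM, and Qpct peaked at 1.34 in T_Y88A TS13. No gene of this list passed in the embryo comparison (0 of 3 tested in limma, 0 at an unadjusted p under 0.05).

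Levels of the partners of the plasma products varied between genes and between systems. Stra6, the receptor for the retinol-binding protein that TTR carries, stood at 6.26, 7.77 and 11.2 FPKM in the embryos and at 0.804 and 0.739 at Day 4. The lipid exporter Abca1, which loads apolipoprotein A-I, stood at 1.69 to 2.95 FPKM in the embryos and under 0.2 at Day 4. Scarb1, the receptor for high-density lipoprotein, was higher at Day 4 (26.6 and 31.9 FPKM) than in the embryos (5.96 to 9.84), as was Apoa1bp, whose product binds apolipoprotein A-I. Lcat, Abcg1 and Apobec1 reached 1.15, 1.61 and 2.94 FPKM at most. Zhx2 and Zbtb20, which repress Afp in mouse liver, stood at 1.44 to 3.59 and at 0.175 to 1.39 FPKM. In the embryo comparison 0 of 6 tested genes passed in limma, 1 at an unadjusted p under 0.05.

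Between the stages of the T_Y88A embryos there was 1 library each and no test. TS13 stood below TS12 for 7 of the 9 genes, against 51.2% of 17103 genes above 0 in either library, and above it for Sox17 and Apoa1. Trh had the widest gap, 1.45 against 0.179 FPKM (log2 difference -1.06), followed by Ttr (-0.73) and Nepn (-0.66). Nepn, averaging 1 FPKM or more in both, was the 1 gene measured by the rule of size, and it did not reach 2-fold on the log2(FPKM + 1) scale, where 1.03% of 11057 genes did. The wild-type library joins both stages, so stage and genotype cannot be fully told apart for any of the 9 genes. In FPKM, TS12 and TS13 differed 8.11-fold for Trh and 2.11-fold for Nepn, the gene called in the embryos.

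The genes nearest in pattern were sought by Pearson's r of log2(FPKM + 1) over the 5 libraries, among genes averaging 1 FPKM or more with an SD of at least 0.5. For Trh they were Eci1, Rpusd3 and Podxl (r = 0.9996, 0.9996 and 0.9995), and 791 of 3838 candidates had r above 0.95, since the points share the split between embryo and Day 4. For Nepn they were Ndufa5 (r = 0.994), Acp5 (0.993) and Tspan8 (0.992), with 123 candidates above 0.95. For Sox17 the nearest were 1600016N20Rik (r = 0.986) and Epm2a (r = 0.965). Acp5 stood at 4.22, 1.54 and 0.731 FPKM in the embryos and at 0.137 and 0 at Day 4, and Tspan8 at 2.61, 1.32 and 0.933 and at 0.0305 and 0.141. With 5 libraries these values describe likeness only.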

How the data were processed

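RNA sequencing of 5 libraries of T-positive sorted cells was analysed; 7 chromatin immunoprecipitation samples were not analysed here. The authors deposited 1 FPKM column per library. Per the submitters' processing notes, TopHat2 2.0.8, Cufflinks 2.1.1 and bedtools 2.23.0 were used with build mm10, with roles not given in the sources used here. Libraries were made with a low-input ScriptSeq kit, per the labels' protocols. Whether counting used strand is likewise not given.

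Each column was assigned through the library number or title in its label (5 used, 0 unused). Of 23421 symbols, 790 for small RNAs were dropped because FPKM of very short transcripts vary strongly; Spink1 of the gut list is listed as Spink3. The authors' FPKM were used as log2(FPKM + 1), which understates changes of low genes, for genes averaging 1 FPKM or more in the compared libraries. R 4.3.3 with limma 3.58.1 (variance trend, two-sided, Benjamini-Hochberg over all genes tested, threshold 0.05) compared 2 T_Y88A embryo libraries with 1 wild type, assumed to vary like them (1 residual degree of freedom, which counts stage as noise). A model of system and genotype (2 residual degrees of freedom) and their interaction (1) used all 5 libraries. The fits were tested on simulated data. Python 3.11.15 and matplotlib 3.10.9 drew the plots. Relative depth is the commonest ratio between values below 0.06 FPKM, within 0.03 on the log2 scale, and it held 16.5% to 25.9% of 112 to 193 low genes. Positions and promoters are from RefSeq on GRCm38.p6. Sequences of the other 2 genes, Sox17 and Ttr, are not shown, and a few genes that the naming rule covers are not reported here.

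The 9 genes and all lists were chosen with earlier results of these data known. Named genes were the 9, list genes passing the embryo test, endoderm, TRH and partner genes reaching 1 FPKM in any library, and the 3 nearest patterns of each of the 9 averaging 1 FPKM or more. Alternatives were a pseudocount of 0.1, filters at 0.3 FPKM and none, quantile normalization, small RNA genes kept, no variance trend, robust moderation, all 5 libraries in the embryo fit, and leaving out libraries; leaving out the wild-type embryo or a Day 4 library, and dropping the genotype covariate, were added after seeing the data.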

Additional observations from a re-analysis of the deposited data

Results flagged for a closer look

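Flagged were 6 named genes too low for the interaction fit at the filter of 1 FPKM. In each, both T_Y88A embryo libraries lay on one side of the wild-type embryo library and the Day 4 pair lay the opposite way. The genes were picked by these opposite directions, and the difference was not tested at that filter. With no filter on low values, the interaction term was fitted for Foxa1, Foxa3 and Hnf4a and did not pass. The embryo minus the Day 4 log2 difference was 0.44 for Foxa1, -0.61 for Foxa3, -0.33 for Hnf4a, -1.87 for Mixl1, -1.14 for Trf and 0.46 for Qpct. Foxa1 and Hnf4a never exceeded 0.437 and 0.243 FPKM, and the Day 4 differences of Hnf4a (0.071), Trf (0.087) and Qpct (-0.021) were near 0. Mixl1 had the largest of the 6, from an embryo difference of -1.70 and a Day 4 difference of 0.17.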

How the results depend on the processing

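The number of the 9 endoderm genes called in the embryos was 1 (Nepn), and 0 at a pseudocount of 0.1, with no filter, with a filter at 0.3 FPKM, under quantile normalization, when small RNAs stayed in, with no variance trend and over all 5 libraries. The count over all genes, 267 (85 higher, 182 lower), became 0 with no filter (2249 at an unadjusted p under 0.05), 176 at a filter of 0.3 FPKM (37 higher, 139 lower), 43 under quantile normalization (5 higher, 38 lower) and 8 over all 5 libraries (1 higher, 7 lower); keeping small RNAs gave 50 higher and 146 lower, and no variance trend 40 higher and 154 lower. The cause was not tested. Leaving out a T_Y88A embryo library left no residual degree of freedom, and Nepn then stood at -1.68 and -1.02 and Trh at -2.07 and -1.02.

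Between embryo and Day 4, the calls for Trh (log2 difference -6.73 to -4.37) held in 13 alternatives and for Nepn (1.39 to 4.69) in the 12 that tested it. Leaving out a library gave 1 to 2 of the 9 genes called and 4264 to 5558 genes in all. The Sox17 difference, leaving out 1 library at a time, ran from -0.66 without wild-type embryo to 0.096 without Day 4 T_Y88A (limma adjusted p = 0.824). The interaction was called for 17 genes, and for 1245 with no filter, 3 at a filter of 0.3 FPKM, 10 under quantile normalization, 9 when small RNAs stayed in and 7 with no variance trend; none of the 9 genes was among them. Between stages, 1 of the 9 genes reached 2-fold at a pseudocount of 0.1, with no filter and with a filter at 0.3 FPKM, against 0; it was Nepn at the first setting and Trh at the others.

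No paired analysis was possible because the labels give no replicate numbers. Levels under 1 FPKM in libraries of unknown depth set the main limit. In the embryos 6 of the 9 genes were not tested at the main filter. None of them passed there when the filter was lowered or dropped.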
